A study of Mus musculus with 6 samples.

Results

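The genes described here are 7 members of the interleukin-17 (IL-17) and interleukin-22 (IL-22) system: the cytokine genes Il17a, Il17f and Il22, the chemokine gene Ccl20, and the IL-17 receptor genes Il17ra, Il17rc and Il17re. They were chosen by gene name, as the ligands, chemokine and receptor chains of the system, with earlier results of these data known. All 7 stand among the 23366 gene names of the count table, and 6 of them passed the filter on low counts that left 10897 genes for testing; Ccl20 did not. RNA had been sequenced from mouse CD4+ effector T cells (Teff) of the FVB/N strain background, transferred into Rag-deficient hosts and sorted 6 weeks later from their mesenteric lymph nodes. Mdr1+ cells were those with low signal of rhodamine 123 (Rh123), a dye that the efflux transporter Mdr1 pumps out, and Mdr1- cells were those with high signal. Each group has 3 libraries, and both share the strain, the host, the time and the lymph node. Mdr1+ and Mdr1- are therefore states read from dye retention in transferred cells, not a gene deletion, and the hosts lack lymphocytes of their own that need Rag to mature. Whether replicates were separate mice, pools or repeat preparations is not stated in the labels, so the p-values measure only the spread between these samples, which may be technical.

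IL-17A and IL-17F are secreted by Th17 cells, a class of helper T cells, and they signal through a receptor made of the widely expressed chain IL-17RA and the chain IL-17RC. IL-17RE joins IL-17RA in the receptor for IL-17C, a cytokine best known from epithelium, and it is also found on Th17 cells. IL-22 acts on epithelium, where its receptor is found, and CCL20 is the ligand of CCR6, a receptor carried by Th17 cells. In the intestine these cytokines are known both for inflammation and for upkeep of the barrier.

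The promoters of the neighbouring genes Il17a and Il17f are shown because these cytokines had the lowest Mdr1+ to Mdr1- ratios together with Il22, and because the list of regulators below holds AP-1 and STAT factors. Sequences are from RefSeq on GRCm38.p6, and 6 of the 7 genes matched the promoter table (all but Il17ra). The Il17a window is chr1:20730655-20730904 on the plus strand, the 250 bases before the gene's start. The Il17f window is chr1:20784271-20784494 on the minus strand, the 224 bases before the start, where bases that another transcript uses as exon are left out. Capitals mark the AP-1 motif TGANTCA and the TATA box TATAAA.
Il17a: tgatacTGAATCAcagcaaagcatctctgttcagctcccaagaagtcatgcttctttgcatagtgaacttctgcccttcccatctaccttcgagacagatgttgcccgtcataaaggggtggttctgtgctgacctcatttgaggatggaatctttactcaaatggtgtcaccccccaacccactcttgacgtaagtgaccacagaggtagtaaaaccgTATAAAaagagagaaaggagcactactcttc
Il17f: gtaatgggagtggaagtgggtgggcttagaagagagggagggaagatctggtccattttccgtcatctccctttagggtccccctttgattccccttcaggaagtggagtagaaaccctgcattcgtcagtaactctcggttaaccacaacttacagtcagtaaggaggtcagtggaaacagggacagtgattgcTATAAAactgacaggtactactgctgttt
The TATA box lies 31 to 26 bases before the start in Il17a and 29 to 24 bases before it in Il17f. The AP-1 motif had a match in Il17a at 244 to 238 bases before the start and none in the Il17f window. On either strand, the TATA box was found in 12.4% of 32851 promoter windows of the same span and the AP-1 motif in 6.75%. The STAT motif TTCNNNGAA, in 7.02% of windows, had no match in the 6 genes. Il22 had a TATA box at 170 to 165 bases before the start, and Ccl20, Il17rc and Il17re had none of the 3 motifs. These matches describe the letters of the windows and were not measured as binding.

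The libraries held 2220691 to 20771456 counts in genes, the fewest in the Mdr1+ library of replicate 3. Levels below are CPM, counts scaled to the library total, after TMM scaling, which aligns libraries by the bulk of their genes, and are followed by the standard deviation (SD) over 3 libraries. Differences are log2 fold changes, Mdr1+ over Mdr1-, with their standard error, from edgeR's quasi-likelihood test, and a gene was called at a Benjamini-Hochberg adjusted p under 0.05 over all tested genes. The fit was made with group as the only term and, since same-numbered libraries deviated together, with the replicate number as a block. The median difference over all tested genes was 0.04 without the block and 0.03 with it. In bulk RNA, fewer cells of a type and less RNA per cell cannot be told apart. The counts of replicate 3 stand in another gene order in the deposited table and were re-ordered first, which changes the row of 6 of the 7 genes. Abcb1a, which encodes the main mouse Mdr1 transporter of lymphocytes, averaged 162 ± 26.3 CPM in Mdr1+ cells and 62.8 ± 18.0 CPM in Mdr1- cells and rose by 1.37 ± 0.25 (adjusted p 0.0237, edgeR without the block), in the direction of the sort.

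Transcripts of the effector cytokines were lower in Mdr1+ cells, several-fold, in every replicate. Of the receptor chain genes, Il17re alone was lower in every replicate. Il17a, the founding cytokine of the family, was counted 45, 38 and 30 times in the Mdr1+ libraries of replicates 1, 2 and 3, against 722, 322 and 287 times in the Mdr1- libraries. In CPM this was 7.48, 1.78 and 14.1 in Mdr1+ cells, against 80.6, 27.8 and 48.7 in Mdr1- cells. All Mdr1+ libraries lay below all Mdr1- libraries, and the library of replicate 2 was the lowest of both groups. Il17a averaged 7.80 ± 6.19 CPM in Mdr1+ cells and 52.4 ± 26.6 CPM in Mdr1- cells. It was 10.8-fold lower in Mdr1+ cells in replicate 1, 15.7-fold lower in replicate 2 and 3.44-fold lower in replicate 3. The log2 fold change was -3.02 ± 0.68 with a 95% interval of -4.56 to -1.48, and its adjusted p in edgeR was 0.0621 without the block and 0.000897 with it, where the difference was -3.15. Without the block, DESeq2, scaling by library totals only and leaving out the Mdr1- library of replicate 2 also called it lower. Other alternatives did not, among them testing without a filter (edgeR adjusted p 0.311), so the call depends on the fit.

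Il17f, the paralogue of Il17a whose product can pair with IL-17A, was at 2.16, 1.22 and 3.30 CPM in Mdr1+ cells, against 17.3, 5.45 and 15.1 CPM in Mdr1- cells. Again the groups did not overlap and replicate 2 was the lowest of both. The Mdr1+ values rest on 13, 26 and 7 counts, and the Mdr1- values on 155, 63 and 89. Il17f was 8.01-fold, 4.48-fold and 4.58-fold lower in Mdr1+ cells in replicates 1, 2 and 3, so the pairs were closer to each other than for Il17a. The log2 fold change was -2.69 ± 0.58, with an edgeR adjusted p of 0.0509 without the block, and -2.46 ± 0.37, with an adjusted p of 0.0037, with it. Without replicate 1 the blocked fit, chosen after the data were seen, gave -2.24 with an edgeR adjusted p of 0.0518, just above the threshold and so not called.

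Il22, which encodes the cytokine that acts on epithelium, was at 2.99, 1.54 and 0 CPM in Mdr1+ cells, against 17.6, 5.88 and 12.1 CPM in Mdr1- cells. The 0 belongs to the shallowest library, where a floor of 3 counts stands at 1.41 CPM. Il22 was 5.90-fold and 3.81-fold lower in Mdr1+ cells in replicates 1 and 2, and at least 8.52-fold lower in replicate 3 against the floor of that library. The groups did not overlap. The fitted log2 fold change depends on how the 0 is treated; it was -2.76 ± 0.68 (edgeR, adjusted p 0.0958 without the block) and -2.61 ± 0.53 (adjusted p 0.0137 with the block). In the deposited order of replicate 3, the Il22 row holds 1344 and 2275 counts, which belong to Il21r after re-ordering. The difference computed there, 0.37 with the opposite sign, is therefore not an estimate for Il22.

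Ccl20, the CCR6 ligand gene, was counted 0, 3 and 0 times in the Mdr1+ libraries of replicates 1, 2 and 3, and 9, 0 and 1 times in the Mdr1- libraries. It was near the floor in both groups and 1 Mdr1- library holds most of its counts. No fold is given. A two-sided exact permutation test of its CPM gave p = 0.4, where 3 libraries against 3 cannot go below 0.1.

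**Figure D1:**
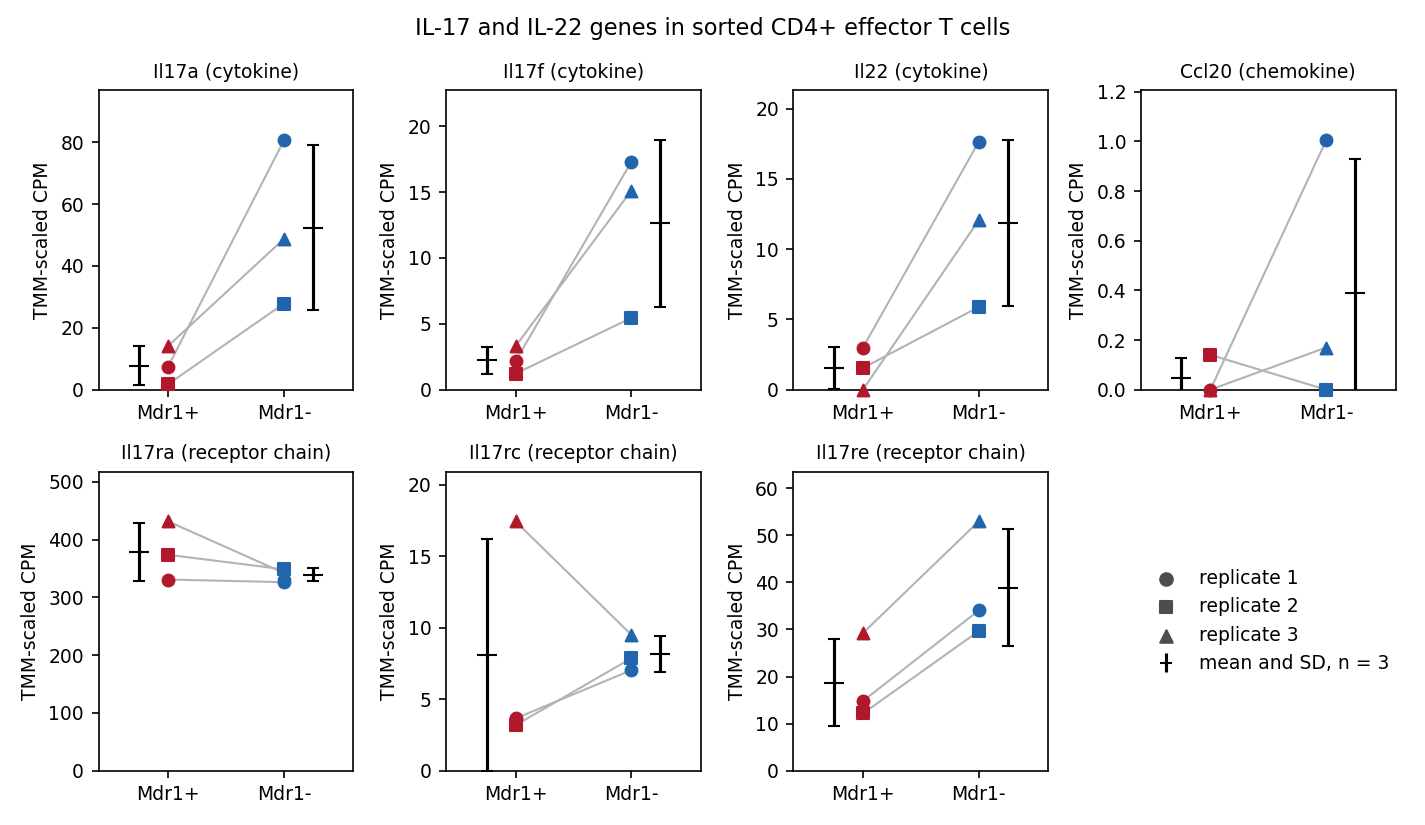
TMM-scaled CPM of the 7 genes in each library, with Mdr1+ left of Mdr1- and lines joining libraries of the same replicate number; bars show mean and SD (n = 3), cut at 0, and each panel has its own axis. Il17a, Il17f, Il22 and Il17re are lower in Mdr1+ in every pair, Il17ra lies between 326 and 432 CPM in all 6 libraries, and the Mdr1+ library of replicate 3 is the highest for Il17rc.

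Among the receptor genes, Il17re was lower in Mdr1+ cells, Il17ra was at similar levels in both groups, and Il17rc differed between replicates. Il17re, the chain that serves IL-17C, was at 14.8, 12.2 and 29.2 CPM in Mdr1+ cells, against 34.0, 29.7 and 53.0 CPM in Mdr1- cells. The highest Mdr1+ library lay just under the lowest Mdr1- library, which belongs to another replicate, and replicate 3 was the highest of both groups. Within replicates 1, 2 and 3 it was 2.30-fold, 2.44-fold and 1.81-fold lower in Mdr1+ cells. The log2 fold change was -1.12 ± 0.37 (edgeR, adjusted p 0.233 without the block) and -1.13 ± 0.17 (adjusted p 0.00413 with the block), so the pairs agreed more closely than the levels.

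Il17ra, the chain shared by the IL-17 receptors, was at 331, 374 and 432 CPM in Mdr1+ cells, against 326, 348 and 342 CPM in Mdr1- cells. It averaged 379 ± 50.5 CPM in Mdr1+ cells and 339 ± 11.4 CPM in Mdr1- cells, and the groups overlapped. The difference was 0.16 ± 0.17, with a 95% interval of -0.22 to 0.53, and its edgeR adjusted p was 0.775 without the block and 0.321 with it. The interval with the block was -0.05 to 0.35. A change of Il17ra of the size seen for Il17re lies outside both intervals.

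Il17rc, the partner chain for IL-17A and IL-17F, was at 3.66, 3.18 and 17.4 CPM in Mdr1+ cells, against 7.03, 7.87 and 9.51 CPM in Mdr1- cells. The Mdr1+ libraries of replicates 1 and 2 were below every Mdr1- library and that of replicate 3 was above every one. The 37 counts behind the last value give an exact 95% Poisson interval of 12.3 to 24.1 CPM, which covers counting error only. The difference over all libraries was -0.18 ± 0.63 (edgeR, adjusted p 0.948). Without replicate 3 it was -1.17, and with the block as well it was -1.21 (adjusted p 0.0132); without replicate 1 it was 0.07 and without replicate 2 it was 0.27. The sign of the difference in Il17rc thus differed between the replicates left out.

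**Figure D2:**
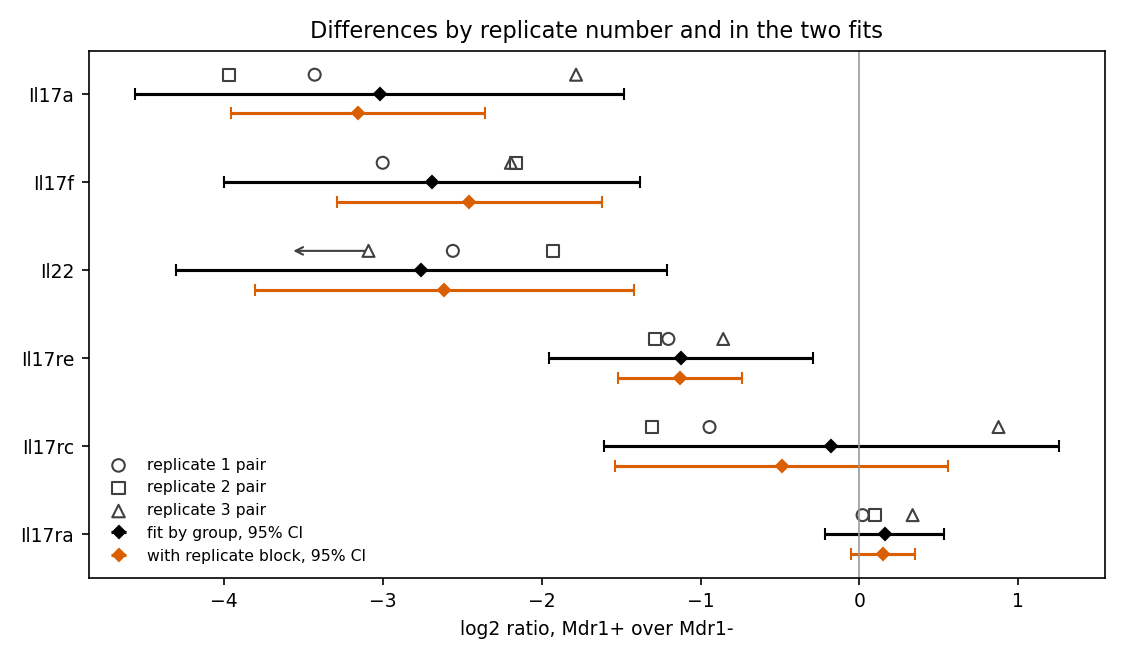
Log2 difference between the Mdr1+ and the Mdr1- library of each replicate number for the 6 tested genes, with the edgeR estimate and its 95% interval without and with the replicate block. Il17a, Il17f, Il22 and Il17re lie below 0 in all 3 replicates. The arrow marks the replicate 3 value of Il22, which is set by the floor of 3 counts.

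Counted together, 0 of the 6 tested genes were called in the fit without the block, where 1.95% of all tested genes were called lower in Mdr1+ cells (212 genes) and 0.275% higher (30 genes). At an unadjusted p under 0.05 the same fit had 4 of the 6 lower, against 7.22% of all genes, and 0 higher, against 4.63%, and DESeq2 called Il17a, Il17f and Il22 lower, against 3.1% of its genes. With the block 4 of the 6 fell (Il17a, Il17f, Il22 and Il17re), against 6.57% of all tested genes (716 genes), and 0 rose, against 5.81%. The same 4 genes had no overlap between the groups, lower in Mdr1+ cells, as did 11% of all tested genes; 8.71% had no overlap in the other direction, and 0 of the 6. The median difference of the 6 was -1.91 without the block, beside 0.04 over all genes. Genes enter the test when 1 group alone is high enough, so these counts describe the 6 genes and leave Ccl20 out. Leaving out replicate 1, 2 or 3 from the blocked fit gave 3, 4 and 5 of the 6 genes lower, against 6.26%, 3.66% and 12.1% of all genes; Il17f dropped out without replicate 1 and Il17rc joined without replicate 3. Without the block, scaling by library totals only called Il17a and Il17f (against 2.09%), testing without a filter Il17f and Il22 (1.76%), edgeR without robust estimation Il17f (2.08%), and leaving out the Mdr1- library of replicate 2 Il17a and Il17f (1.21%).

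The order of the genes by level was read from CPM per kilobase of exon (GENCODE M21 on GRCm38). In Mdr1+ cells Il17ra came first with a mean of 43.7, followed by Il17a at 6.66, Il17re at 3.19, Il17rc at 3.03, Il22 at 1.36, Il17f at 1.10 and Ccl20 at 0.0329 CPM per kilobase. Of these neighbours, only Il17ra and Il17a, and Il17f and Ccl20, did not overlap over the libraries. In Mdr1- cells Il17a came first with a mean level of 44.7, followed by Il17ra at 39.1, Il22 at 10.7, Il17re at 6.63, Il17f at 6.24, Il17rc at 3.05 and Ccl20 at 0.276 CPM per kilobase. There Il17a and Il17ra overlapped, with 23.8 to 68.8 for Il17a and 37.7 to 40.2 for Il17ra, and the separated neighbours were Il17ra and Il22, and Il17rc and Ccl20.

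Ratios of 2 genes within a library do not depend on scaling between libraries, and 14 of them were compared with two-sided exact permutation tests, for which the smallest p is 0.1 (0.2 after Benjamini-Hochberg adjustment over the 14). Of these, 7 had no overlap between the groups, 6 of them lower in Mdr1+ cells, and no ratio passed 0.05. The 7 are 4 of the 9 planned ratios and 3 of the 5 added after the values were seen. Relative to Ifng, the Th1 cytokine gene, all 3 cytokines were lower in Mdr1+ cells in every library. The log2 ratio of Il17a to Ifng was -5.55, -6.85 and -3.66 in Mdr1+ cells, against -1.85, -2.37 and -2.24 in Mdr1- cells, a difference of -3.20 (exact p 0.1). The differences were -2.56 for Il17f and -3.54 for Il22 relative to Ifng, each with exact p 0.1. The value for Il22 includes the library at 0 counts, whose ratio is set by the pseudocount, and it was -2.63 without replicate 3. Ifng itself averaged 248 ± 93.8 CPM in Mdr1+ cells and 222 ± 73.7 CPM in Mdr1- cells, with an edgeR adjusted p of 0.891. Cd4 was at 1095 to 1114 CPM in Mdr1+ cells, against 1023 to 1124 CPM in Mdr1- cells, and the log2 ratio of Il17a to Cd4 differed by -3.09 (exact p 0.1).

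Relative to Ccr6, a ratio added after the values were seen, the difference in Il17a was -0.85 with overlap (exact p 0.5). The ratio of Il17a to Il17f was 1.75, 0.54 and 2.02 in Mdr1+ cells, against 2.22, 2.34 and 1.68 in Mdr1- cells, and the groups overlapped (exact p 0.3). Il22 relative to Il17a had log2 ratios of -1.30 and -0.20 in the Mdr1+ libraries of replicates 1 and 2, against -2.19 and -2.24 in the Mdr1- libraries. In replicate 3, where Il22 had 0 counts in the Mdr1+ library, the ratio was at its pseudocount, and the difference of -0.33 over all libraries became 1.46 without that replicate.

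Between receptor chains, the log2 ratio of Il17re to Il17ra, added after the values were seen, was -4.48, -4.94 and -3.87 in Mdr1+ cells, against -3.26, -3.55 and -2.69 in Mdr1- cells. The groups did not overlap, and the difference was -1.26 (exact p 0.1). Il17a relative to Il17re, also added later, differed by -1.93 with no overlap (exact p 0.1), so within these libraries the cytokine differed more than this receptor chain. The ratio of Il17ra to Il17rc differed by 0.60 with overlap (exact p 0.4). The ratio of Ccl20 to Ccr6 differed by 1.58 with overlap (exact p 0.5), on at most 9 counts of Ccl20.

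**Figure D3:**
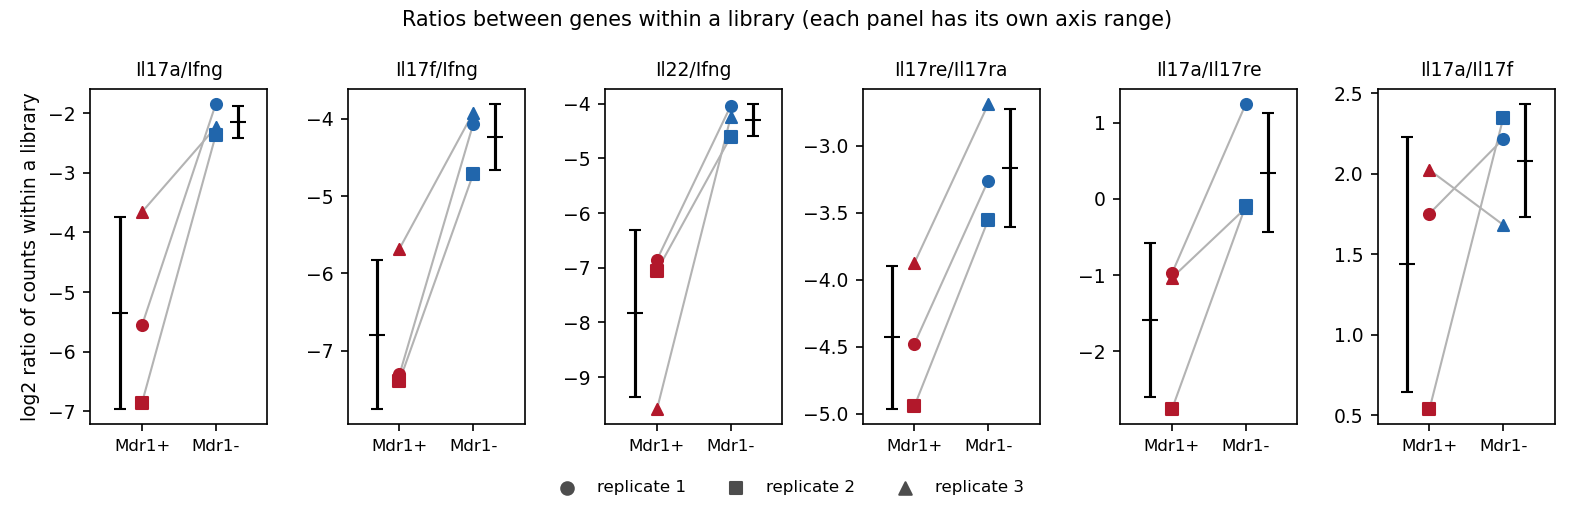
Log2 ratios of counts of 2 genes within each library, Mdr1+ left of Mdr1-, with lines joining replicate numbers and bars for mean and SD (n = 3); each panel has its own axis range. The groups do not overlap for Il17a, Il17f and Il22 relative to Ifng, Il17re relative to Il17ra and Il17a relative to Il17re, and overlap for Il17a relative to Il17f.

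The cytokine genes differed in how much they varied between libraries of 1 group, Il17a most for its level. The pooled within-group SD of log2 CPM was 1.16 for Il17a, larger than in 93.8% of tested genes, 0.78 for Il17f (87.9%) and 1.55 for Il22 (97.2%). The median over all tested genes was 0.34. Among 1604 genes of like level, within 0.5 log2 units of Il17a, the median SD was 0.37 and 98.9% had a smaller one than Il17a; among genes of like level the share was 72.8% for Il17f and 84.2% for Il22, whose SD includes the library at 0 counts. Il17ra had an SD of 0.14, larger than in 9.69% of tested genes. The SD of the 3 pair differences was 0.22 for Il17re and 0.48 for Il17f, beside 1.08 for Il17a, so libraries of the same number moved together most closely for Il17re among the 4 genes called with the block.

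Genes of like pattern were taken as the 5 with the smallest root mean square difference between centred log2 CPM profiles over the 6 libraries. For Il17a they were 2810417H13Rik at 0.72, Cdc6 at 0.76, Ncapg2 at 0.81, B3galt2 at 0.82 and Ncapg at 0.84 log2 units, beside a median of 1.82 over all tested genes. Il17f was closer to Il17a than any of these, at 0.61, while Il22 lay at 1.82, as far as the median gene. For Il17f the closest were Chek1 at 0.44, 1700012B07Rik at 0.48, and Il23r, Ncapg2 and Il1r2 at 0.49, beside a median of 1.38. For Il22 they were Pbk at 0.53, Gm13546 at 0.55, Dusp14 at 0.58, Cenpp at 0.59 and Cenph at 0.64, beside a median difference of 2.12. The Il22 profile includes the library at 0 counts. For Il17ra they were Smg6, Fbxo38, Cog4, Dffa and Rbm15, at 0.03 to 0.04 log2 units, beside a median of 0.35. Cdc6, Chek1, Ncapg and Cenph are genes of DNA replication, its checkpoint, chromosome condensation and the kinetochore. The profiles keep the difference between the groups, so genes with a like group difference lie close for that reason alone. Whether they share more than this with the cytokines was not tested.

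Genes that act upstream of these cytokines did not share 1 direction. Of 27 tested regulators of Il17a and Il22 transcription, 0 were called in the fit without the block. With the block 5 fell, against 6.57% of all tested genes, and 3 rose, against 5.81%. The median of the list was 0.03 in both fits. The fallen genes were the AP-1 factor gene Batf (-0.49, adjusted p 0.00976), the IL-23 receptor gene Il23r (-1.54, adjusted p 0.00662), Il1r1, the receptor for IL-1 (-1.09, adjusted p 0.00157), Il21 (-1.66, adjusted p 0.00424) and Il6st, the shared chain gp130 (-0.43, adjusted p 0.0401), all from edgeR with the block. Those that rose in the same fit were Stat3 (0.38, adjusted p 0.0194), the TGF-β receptor gene Tgfbr2 (0.38, adjusted p 0.0203) and Il21r (0.56, adjusted p 0.00491).

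Of 9 genes of the Ccr6 axis and the Th17 surface, Ccr6 and the leukotriene B4 receptor gene Ltb4r1 fell in both fits. Of all tested genes 1.95% were called lower without the block, and 6.57% lower and 5.81% higher with it. Ccr6 was at 7.64, 8.18 and 6.13 CPM in Mdr1+ cells, against 28.2, 31.0 and 44.3 CPM in Mdr1- cells (-2.20 ± 0.28, edgeR adjusted p 0.0057). Every Mdr1+ library lay far below every Mdr1- library, and within the Mdr1+ group its values were closer together than those of Il17a. With the block Il23r and Il1r1 also fell and Il18r1, an IL-18 receptor chain, rose (0.40, adjusted p 0.0138). The median of the list was -0.40 without the block.

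The called genes downstream of the receptors were higher in Mdr1+ cells, in the blocked fit alone, where 5.81% of all tested genes were called higher and 6.57% lower. Of 24 tested genes of IL-17 receptor signalling 0 were called without the block, and with it 4 rose and 0 fell: Arid5a, which stabilises cytokine mRNA, from edgeR at 0.83 (adjusted p 0.000504), the kinase gene Ikbkb at 0.71 (adjusted p 0.00117), and the feedback inhibitors Tnfaip3 at 0.49 (adjusted p 0.00856) and Zc3h12a at 0.43 (adjusted p 0.0314). Traf3ip2, the adaptor Act1, was at 56.5 ± 19.2 CPM in Mdr1+ cells and 52.6 ± 12.7 CPM in Mdr1- cells and did not pass. The median of the list was 0.20. Of 8 genes of IL-22 receptor signalling 0 were called without the block, and with it 3 rose and 0 fell: the inhibitor Socs3, at 643 ± 35.4 CPM in Mdr1+ cells and 387 ± 38.8 CPM in Mdr1- cells (0.73, edgeR adjusted p 0.0021 with the block and 0.0586 without it), Stat3, and Jak1 at 0.30 (adjusted p 0.0302). The median of that list was 0.27. These signalling genes serve many receptors, and their levels are not a readout of IL-17 or IL-22.

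The specific chain of the IL-22 receptor was not detected: Il22ra1 had 0 counts in all 6 libraries, which allows up to 3 counts in each. Il10rb, the chain shared with the IL-10 receptor, was at 42.1 ± 12.1 CPM in Mdr1+ cells and 25.5 ± 5.60 CPM in Mdr1- cells and rose with the block (0.70, edgeR adjusted p 0.0245), as did Il10ra, which serves IL-10 and not IL-22 (1.10, adjusted p 0.00234). Of the other IL-17 family genes Il17b and Il25 had 0 counts in all libraries and Il17d at most 3. Il17rb, the IL-25 receptor chain, was at 3.58 ± 0.52 CPM in Mdr1+ cells and 4.66 ± 1.11 CPM in Mdr1- cells and did not pass (edgeR adjusted p 0.786).

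**Figure D4:**
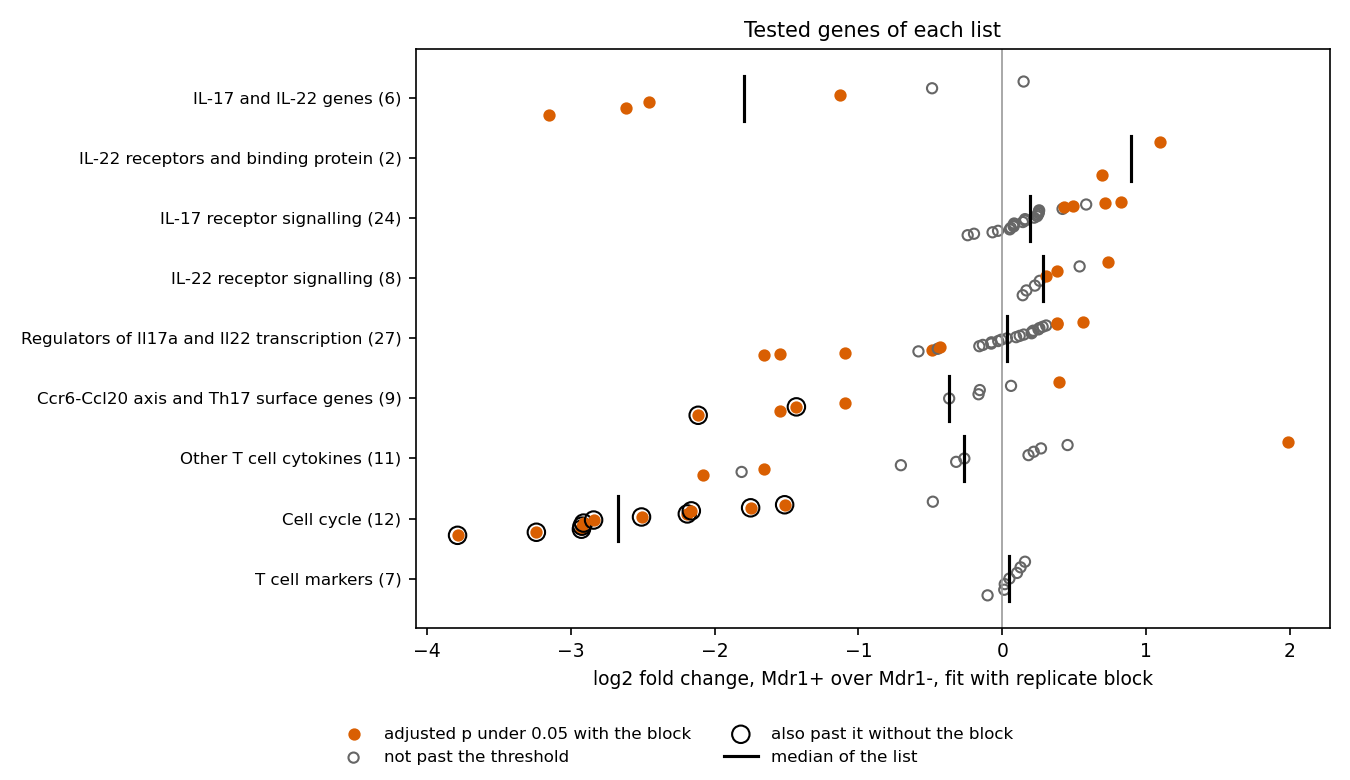
Log2 fold change, Mdr1+ over Mdr1-, from the edgeR fit with the replicate block for the tested genes of each list (number in brackets); filled points have an adjusted p under 0.05, black rings mark genes also past it without the block, and bars are list medians. In the IL-17 and IL-22 row 4 points are filled and 0 are ringed, the signalling rows hold filled points above 0 only, and 11 of 12 cell cycle genes are ringed below 0.

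Other cell types and states were read beside these results. Of 12 cell cycle genes 11 fell in both fits, against 1.95% of all tested genes without the block and 6.57% with it. The summed level of the 12 was 622 to 760 CPM in Mdr1+ cells, against 2424 to 3596 CPM in Mdr1- cells. The log2 ratio of Il17a to Mki67, a proliferation gene, was -5.18 ± 1.31 in Mdr1+ cells and -4.64 ± 1.13 in Mdr1- cells and overlapped (difference -0.54, exact permutation p 0.7), while that of Il17re to Mki67 was higher in Mdr1+ cells with no overlap (1.39, exact p 0.1); both ratios were added after the values were seen, and the part of cycling in the results above was not tested. Of 7 tested T cell markers 0 were called in either fit, with a median of 0.05. Of the gamma-delta T cell markers Sox13 had at most 3 counts and the 3 in the table summed to 10.4 to 18.4 CPM in Mdr1+ cells, against 5.94 to 8.04 CPM in Mdr1- cells. The receptor constant genes Trdc, Tcrg-C1, Tcrg-C2 and Tcrg-C4 are not among the gene names counted. The 6 innate lymphoid and NK markers summed to 27.1 to 38.7 CPM in Mdr1+ cells, against 15.0 to 24.6 CPM in Mdr1- cells, with Klrk1 higher in the blocked fit and Ncr1 at most at 3 counts. Cd163l1 carried nearly all of the gamma-delta sum, at 13.0 CPM in Mdr1+ cells and 6.36 CPM in Mdr1- cells on average, and its edgeR adjusted p passed in neither fit. Kit, a marker of innate lymphoid cells, was at 0.665, 0.981 and 0 CPM in Mdr1+ cells, against 1.67, 1.38 and 2.21 CPM in Mdr1- cells, lower with no overlap while the sum of its list was higher. The part of these cells in the cytokine differences was not tested.

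The 9 myeloid and neutrophil markers summed to 11.8 to 24.1 CPM in Mdr1+ cells, against 14.5, 10.2 and 102 CPM in the Mdr1- libraries of replicates 1, 2 and 3. Csf3r was at 0 in all. Lyz2 was lower in the blocked fit, on 2, 3 and 3 counts in Mdr1+ cells against 15, 5 and 86 in Mdr1- cells. Cd68, the other tested marker, was at 13.8 ± 3.59 CPM in Mdr1+ cells and 12.4 ± 4.56 CPM in Mdr1- cells and was not called. Cd68 carried most of the sum in every library except the Mdr1- library of replicate 3. Itgam was at 0.498, 0.234 and 0 CPM in Mdr1+ cells, against 1.34, 0.865 and 2.21 CPM in Mdr1- cells. Csf1r had 0 counts in every Mdr1+ library, against 2, 3 and 30 in the Mdr1- libraries. Neither Itgam nor Csf1r passed the filter. Il1b (36.7 CPM) and Cd14 (23.6 CPM) were also highest in the Mdr1- library of replicate 3. The same Mdr1- library of replicate 3 held most of the signal of 16 epithelial and stromal target genes of IL-17 and IL-22, of which 0 passed the filter: they summed to 0.748 to 9.43 CPM in Mdr1+ cells, against 1.21 to 85.7 CPM in Mdr1- cells, and Reg3b, Reg3g, Cxcl5, Defb3 and Mmp3 were at 0 in all. Without that library the differences were -3.03 for Il17a, -2.51 for Il17f, -2.76 for Il22 and -0.83 for Il17re. None of these was called in that fit, made without the block (edgeR adjusted p 0.193, 0.231, 0.301 and 0.702). The 4 B cell markers summed to 11.0 to 22.7 CPM in Mdr1+ cells, against 6.36 to 10.8 CPM in Mdr1- cells, with Ms4a1 at 3 counts or fewer. Cd22 was higher in the blocked fit and carried most of the sum in the Mdr1+ libraries of replicates 1 and 2 (8.47 and 21.6 CPM). In the Mdr1+ library of replicate 3, Cd79a held 11.3 CPM. Cd79a (1.38 with the block) and Cd79b (-0.57) differed in sign and were not called. The 4 epithelial markers summed to 1.99 to 10.8 CPM in Mdr1+ cells, against 3.13 to 7.81 CPM in Mdr1- cells, with Krt8 and Krt19 at 0. The 8 stromal and endothelial markers summed to 118 to 192 CPM in Mdr1+ cells, against 126 to 137 CPM in Mdr1- cells, with Acta2 lower in both fits and Pdgfra at 0. Pecam1, which T cells can also express, carried most of that sum, and Cdh5, an endothelial marker, was at 0.332, 0.327 and 0.472 CPM in Mdr1+ cells, against 1.79, 2.42 and 1.87 CPM in Mdr1- cells, with no overlap. The Mdr1+ values of Cdh5 rest on 2, 7 and 1 counts, and it was called in neither fit (edgeR adjusted p 0.116 and 0.0591). The part of these cells in the results was not tested.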

How the data were processed

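The values are raw read counts per gene symbol in 1 table that the authors deposited. Per the submitters' processing notes, the tools were TopHat, HTSeq and DESeq2 and the mouse build was mm9. Not given in the sources used here are their versions, the annotation and whether counting used the strand, although the library kit was stranded, per the labels' protocols. Groups and replicate numbers came from the sample titles. HTSeq's classes of unassigned reads, present for replicates 1 and 2, were left out of library sizes; reads without a unique position were 67.0% to 73.2% of all entries there, and reads in no feature 13.2% to 19.7%.

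Replicate 3 was re-ordered: its columns follow the gene names sorted ignoring case. In the deposited order their Spearman correlations with the other libraries were 0.424 to 0.460, and 0.926 to 0.962 after re-ordering, against 0.957 to 0.969 among the other 4.

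Tests used edgeR 4.0.16 (R 4.3.3) on all 6 libraries: TMM, filterByExpr by group, robust quasi-likelihood F test and Benjamini-Hochberg adjustment. DESeq2 1.42.0, other scalings and filters, and leaving out libraries were alternatives. The scripts were tested on simulated data. The replicate numbers were taken as pairs because same-numbered deviations from the group means correlated (0.41, 0.57 and 0.21, all above 0.1). Differently numbered ones gave -0.36 to 0.014. These correlations come from the same data as the tests. The labels do not state a pairing, and the p-values of the blocked fit rest on it. Log2 ratios used a pseudocount of 0.5 and profiles of like pattern a prior count of 2. Permutation tests used scipy 1.17.1.

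The genes and the 16 lists beside them were chosen with earlier results of these data known. All 7 genes are named, with Ifng, Ccr6, Cd4 and Mki67 for comparison and Abcb1a as a check of the sort; from each list genes past the threshold in either fit, otherwise at most the 3 of highest level. Genes near 0 and list members outside this rule were named after their values were seen. A planned comparison gene with its ratios, and 1 marker gene, are not reported here and stay out of the lists. Depth limits Il22, Ccl20 and Il17f most, and intervals and floors cover counting error only.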

Additional observations from a re-analysis of the deposited data

How the results depend on the processing

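With the replicate block, log2 fold changes were -3.15 for Il17a, -2.46 for Il17f, -2.61 for Il22 and -1.13 for Il17re, all newly called, with 633 genes higher, 716 lower and 4 of the 6 genes lower; in the pathway lists 13 genes were higher, against 0 in the fit without the block, and 8 lower, against 2. Blocked fits without replicates 1, 2 and 3, added after the data were seen, gave -2.99, -2.69 and -3.71 for Il17a, -3.06, -3.26 and -2.24 for Il22 and -1.15, -1.03 and -1.28 for Il17re, -2.24 (not called, adjusted p 0.0518, edgeR), -2.64 and -2.56 for Il17f, and -1.21 for Il17rc without replicate 3. They had 436, 259 and 1131 genes higher, 694, 392 and 1347 lower, 3, 4 and 5 of the 6 genes lower, and in the lists 13, 9 and 19 higher and 8, 8 and 12 lower. DESeq2 gave -2.84, -2.66 and -2.80 for Il17a, Il17f and Il22, all called, with 102 genes higher, 378 lower, 3 of the 6 lower and 5 list genes higher. With library totals only, Il17a (-3.06) and Il17f (-2.72) were called, 2 of the 6, and 1 list gene was higher and 1 lower. Without the filter, Il17f (-2.68) and Il22 (-2.75) were called, 2 of the 7 genes then tested, with 52 genes higher and 2 list genes higher. Without robust estimation Il17f (-2.69) was called, 1 of the 6, and 1 list gene was higher. With replicate 3 in deposited order the Il22 row, which then holds the replicate 3 counts of Il21r, was at 0.37, the opposite sign. In that order 0 genes were called in either direction, lists included. RLE size factors changed none of these calls. Leaving out 1 library or 1 replicate number without the block gave -3.70 to -2.36 for Il17a, -3.05 to -2.27 for Il17f, -3.37 to -2.39 for Il22, 0.03 to 0.20 for Il17ra, -1.27 to 0.28 for Il17rc and -1.53 to -0.83 for Il17re; Il17a and Il17f were called without the Mdr1- library of replicate 2 (adjusted p 0.0313 and 0.0198, edgeR). The difference in Il17rc had the opposite sign when Mdr1+ replicate 1 (0.15), Mdr1+ replicate 2 (0.28), replicate 1 (0.07) or replicate 2 (0.27) was left out. In these fits 0 to 15 genes were higher, 0 to 196 lower, 0 to 2 of the 6 lower, and 0 to 1 list genes higher and 0 to 2 lower; both counts over all genes were 0 without replicate 3. Of the ratios, Il22 to Il17a (1.46) and Il22 to Il17f (0.33) had the opposite sign without replicate 3, with ranges over the replicate left out of -1.52 to 1.46 and -1.68 to 0.33; the other 12 kept their direction under a pseudocount of 1, pairing by replicate number and leaving out each number. Except where stated, the cause was not tested. With 2220691 counts in the shallowest library, levels under 1.41 CPM cannot be read there.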

Other observations

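Among 11 tested genes of other T cell cytokines 0 were called without the block. With it 1 rose, against 5.81% of all tested genes, and 2 fell, against 6.57%. Il10, the gene of the cytokine that signals through Il10ra and Il10rb, was at 20.3, 17.1 and 12.3 CPM in the Mdr1+ libraries of replicates 1, 2 and 3, against 6.47, 2.51 and 4.41 CPM in the Mdr1- libraries. It lay higher in every Mdr1+ library than in any Mdr1- library, and its log2 fold change was 1.91 ± 0.41 without the block (edgeR, adjusted p 0.0502) and 1.99 ± 0.34 with it (adjusted p 0.00666). Il21, a cytokine gene of helper T cells, was at 66.3, 18.3 and 7.07 CPM in Mdr1+ cells, against 168.9, 46.6 and 64.7 CPM in Mdr1- cells; the groups overlapped, while each pair had the Mdr1+ library lower, and it fell with the block (-1.66 ± 0.25, edgeR adjusted p 0.00424). Ebi3, which encodes a subunit of IL-27 and IL-35, was counted 7, 56 and 0 times in the Mdr1+ libraries and 41, 97 and 25 times in the Mdr1- libraries, and was called lower with the block (edgeR adjusted p 0.0454).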
